A study of Homo sapiens with 6 samples.

Results

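TGFBR2, the type II receptor that binds TGF-beta itself, was studied together with 9 other receptors of the same ligand family in KGN cells depleted of FOXL2. The 10 genes were TGFBR1, ACVR1, ACVR1B and BMPR1A (type I receptors), TGFBR2, ACVR2A, ACVR2B and BMPR2 (type II receptors), and TGFBR3 and ENG (coreceptors). They were found by their Ensembl identifiers among 60671 genes, and each of the 10 was among the 15663 genes whose counts were high enough to test. The set was chosen by family, but it was assembled around TGFBR2 and selected on the lower TGFBR2 counts of these FOXL2 siRNA libraries. The change of TGFBR2, and of the 9 receptors in the same contrast, is therefore given as a description, with no test.

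KGN is a human granulosa cell tumour line, and the cells used here were genome-edited so that the FOXL2 genotype is WT/WT. All 6 cultures were transfected with 30 pmol of siRNA by lipofection, and RNA was taken 30 h later, 3 with siRNAs against FOXL2 and 3 with a scrambled control siRNA. Each FOXL2 siRNA pool held 3 of 4 siRNAs, with 1 common to all pools and a different one missing from each, so that the pool and the replicate cannot be told apart. Whether the edited line is 1 clone, and whether the cultures were independent, is not given in the sources used here, and the errors below measure the spread between these libraries.

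Total expected counts lay between 23843192 and 28791954 per library. FOXL2 itself was at 9.88, 9.71 and 10.8 CPM in the control libraries and at 2.64, 3.31 and 2.36 CPM in the FOXL2 siRNA libraries, which left 27.3% of the control mean. CPM here is a count scaled to the library size, which was normalised by TMM (the trimmed mean of M-values). Of 13 granulosa markers, 6 reached 1 TPM in some library, among them AMH, NR5A1, STAR and INHBB. The other 7 stayed under 1 TPM, and the FSH receptor gene FSHR and WT1 had no read in any of the 6 libraries. Of 6 endothelial markers, 5 stayed under 1 TPM in every library, which matters for ENG and TGFBR2 since both are also abundant in endothelium. The other one, TEK, averaged 1.76 TPM in the control libraries and 2.06 TPM with FOXL2 siRNA. PTPRC, CD14, EPCAM and CDH1 stayed under 1 TPM as well, whereas CD68 and KRT14 did not. FOXL2 siRNA replicate 2 stood apart from the other 5 libraries, with a score of 30.6 on a first principal component of log2(CPM + 0.5) that held 34.8% of the variance, against -13.2 for the next farthest, control siRNA replicate 3. For some of the genes described below, the value without it is given. Others moved too when it was left out. The log2 fold change of SKIL went from 0.39 to 0.26, and that of INHBA from -0.15 to -0.30.

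Ligands of the TGF-beta family, which include the TGF-betas, activins, inhibins and BMPs, signal through pairs of receptors with a serine/threonine kinase domain. A type II receptor binds the ligand and phosphorylates a type I receptor, which in turn phosphorylates SMAD proteins. TGFBR2 pairs with TGFBR1, the activin receptors ACVR2A and ACVR2B pair with ACVR1B, and BMPR2 pairs with BMPR1A or ACVR1. The coreceptors TGFBR3 (betaglycan) and ENG (endoglin) bind ligand but have no kinase of their own. In granulosa cells this family is known for its part in follicle growth and in the action of AMH. FOXL2 is a forkhead transcription factor of granulosa cells that is known to act with SMAD proteins.

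FOXL2 is known to bind forkhead sites in DNA, and the study that produced these libraries examined its binding to RNA that carries runs of G doublets. Both kinds of sequence were therefore looked for in the receptors. The forkhead word was NTAAANA, with G or A as its first base and C or T as its last but one, on both strands and in windows from 250 bases before to 50 bases after each RefSeq start site of GRCh38.p14. At least 1 such word lay in 13.6% of 35116 windows, in 11.04% of the 11061 tested genes with a window, and in 2 of the 10 receptors. TGFBR2 has 2 start sites in that table, and its forkhead word lies in both windows. It is shown first, with the 250 bases before the upstream start site and the first 30 bases after it, and the word in capitals is at chr3:30606364-30606370. BMPR1A is the other receptor with a word, read here on the opposite strand of the gene.
TGFBR2 (GRCh38.p14, plus strand, chr3:30606106-30606385): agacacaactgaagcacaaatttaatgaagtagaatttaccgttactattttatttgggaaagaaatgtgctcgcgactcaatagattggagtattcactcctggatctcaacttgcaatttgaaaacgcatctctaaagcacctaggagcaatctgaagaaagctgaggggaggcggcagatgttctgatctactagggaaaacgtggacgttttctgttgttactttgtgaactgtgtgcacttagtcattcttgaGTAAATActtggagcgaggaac
BMPR1A (GRCh38.p14, plus strand, chr10:86755722-86755751): agctggaggcgTATTTATagctggctgacc
The TGFBR2 word begins at base 9 after the upstream start site and 237 bases before the downstream one. That of BMPR1A begins 30 bases before the start site. A match of 7 letters is a description of the sequence and no binding site was measured here.

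Runs of 8 G doublets with gaps of 1 to 4 bases were sought in the longest coding transcript of each gene in GENCODE v29 (GRCh38). Such a run was present in 5 of the 10 receptors, in 19.3% of 15530 tested genes, and in 24.0% of the 8176 tested genes whose transcript length lay within the range of the receptors. TGFBR2 and TGFBR1, which form 1 signalling pair, both had a run, and ACVR1B, ACVR2B and BMPR1A were the others. TGFBR3, ACVR1, ACVR2A, BMPR2 and ENG had none in the transcript searched. The run of BMPR1A lay in its 5′ UTR and that of ACVR2B in its 3′ UTR, and ACVR1B had a further run in its 3′ UTR. The runs near the 5′ ends of 3 transcripts are shown, with every pair of adjacent Gs in capitals. Those of TGFBR2 and ACVR1B lie in the 5′ UTR and that of TGFBR1 in the coding sequence. In TGFBR2 the stretch GGGG holds 1 doublet of the run, its middle pair.
TGFBR2 (exon 1 of 7, 5′ UTR, plus strand, chr3:30606773-30606802, the first 30 of 38 bases): GGcccGGcgcGGGGtccGGagaGGgcgcGG
TGFBR1 (exon 1 of 9, coding, plus strand, chr9:99105256-99105278): GGcGGcGGcGGcGGcGGcGGcGG
ACVR1B (exon 1 of 9, 5′ UTR, plus strand, chr12:51951710-51951735): GGctgcGGcGGcGGcGGcGGcGGcGG
In TGFBR1 the run is a perfect repeat of GGC within the coding sequence, whereas in TGFBR2 the gaps vary in length and in letters and the run lies before the start codon.

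Levels of different genes can be compared only per length, so the order of the receptors is given in TPM, a level that RSEM scales to transcript length and to the library. In the control libraries ENG was the highest of the 10, at 181 ± 9.75 TPM (SD, n = 3), and TGFBR2 was next at 97.7 ± 3.18 TPM. TGFBR1 followed at 27.8 ± 3.88 TPM, BMPR2 at 25.0 ± 1.89 TPM and ACVR1 at 22.2 ± 1.02 TPM. The remaining receptors were BMPR1A at 13.3 ± 1.80 TPM, ACVR1B at 6.98 ± 1.04 TPM, TGFBR3 at 5.23 ± 0.69 TPM, ACVR2A at 3.19 ± 0.60 TPM and ACVR2B at 0.78 ± 0.12 TPM. Neighbours in this order had control ranges that did not overlap, except that TGFBR1 overlapped BMPR2 and ACVR1B overlapped TGFBR3. The order was the same with TMM CPM per kilobase of effective length, the length over which a read can start as RSEM estimates it in each library. TPM rests on the same counts and lengths, so the same order is built in and is no test of it. ENG and TGFBR2 stood above 94.7% and 89.7% of the tested genes, whereas ACVR2B stood above 9.76% of them.

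**Figure D1:**
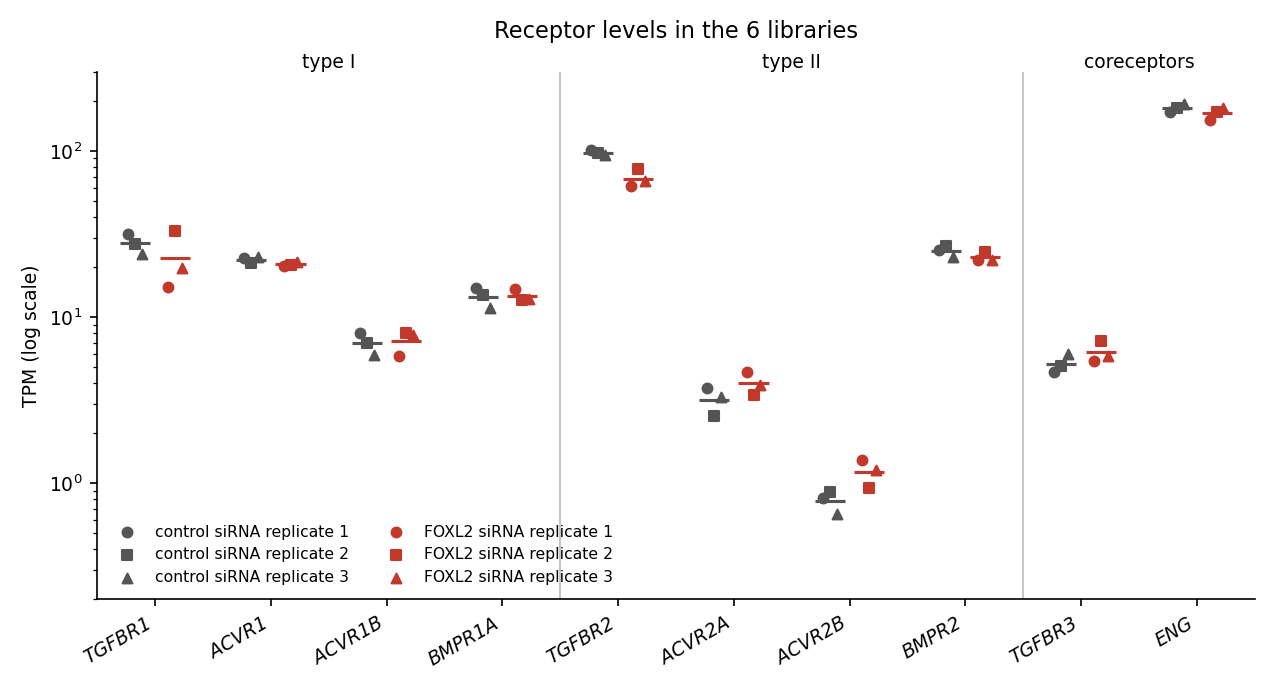
TPM of the 10 receptors (log axis) in the 3 control siRNA libraries (grey) and the 3 FOXL2 siRNA libraries (red), 1 marker shape per replicate number, with a line at each mean. ENG and TGFBR2 lie above the other 8 receptors in all 6 libraries, and the groups are clearly apart for TGFBR2, with means of 97.7 and 68.1 TPM.

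TGFBR2 lies on chromosome 3 (30606502 to 30694142, plus strand, GENCODE v29) and had between 4803 and 7426 expected counts per library, more than any other kinase receptor of the set. Its level was 285, 275 and 277 CPM in the control libraries, 279 ± 5.38 CPM on average (SD, n = 3). With FOXL2 siRNA it was 176, 205 and 188 CPM, 190 ± 14.7 CPM on average. All 3 FOXL2 siRNA libraries were below all 3 control libraries, at 63.0%, 73.5% and 67.4% of the control mean. The log2 fold change was -0.56 ± 0.07 (SE), a level 32.0% lower.

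TPM gave the same picture for TGFBR2, with 101, 97.3 and 94.7 TPM in the control libraries and 61.4, 77.6 and 65.5 TPM in the FOXL2 siRNA libraries. Its effective length varied by 2.21% over the 6 libraries. In TPM the FOXL2 siRNA libraries were at 62.8%, 79.4% and 67.1% of the control mean, against 63.0%, 73.5% and 67.4% in CPM. The 2 units were thus close in replicates 1 and 3 but parted in replicate 2. The FOXL2 siRNA library that stands apart, replicate 2, had the highest TGFBR2 of the 3 in both units. Without it the log2 fold change was -0.62, and over the 6 fits that left out 1 library each it lay between -0.62 and -0.51. In RNA from whole cultures, fewer cells with the transcript and less transcript per cell cannot be told apart.

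Of the 10 receptors, TGFBR2 was the only one that edgeR called (adjusted p below 0.05), beside 0.255% of all tested genes in either direction and 0.147% in the lower direction. TGFBR2 was chosen for its change in this contrast, so nothing is read from that count. The call was lost in 4 of the 6 fits that left out 1 library, namely those without FOXL2 siRNA replicate 3 or without any 1 of the control libraries, while the fold change kept its size. DESeq2, with and without effective lengths as offsets, also called TGFBR2 and no other receptor, beside 2.13% of all tested genes without the offsets and 2.29% with them.

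**Figure D2:**
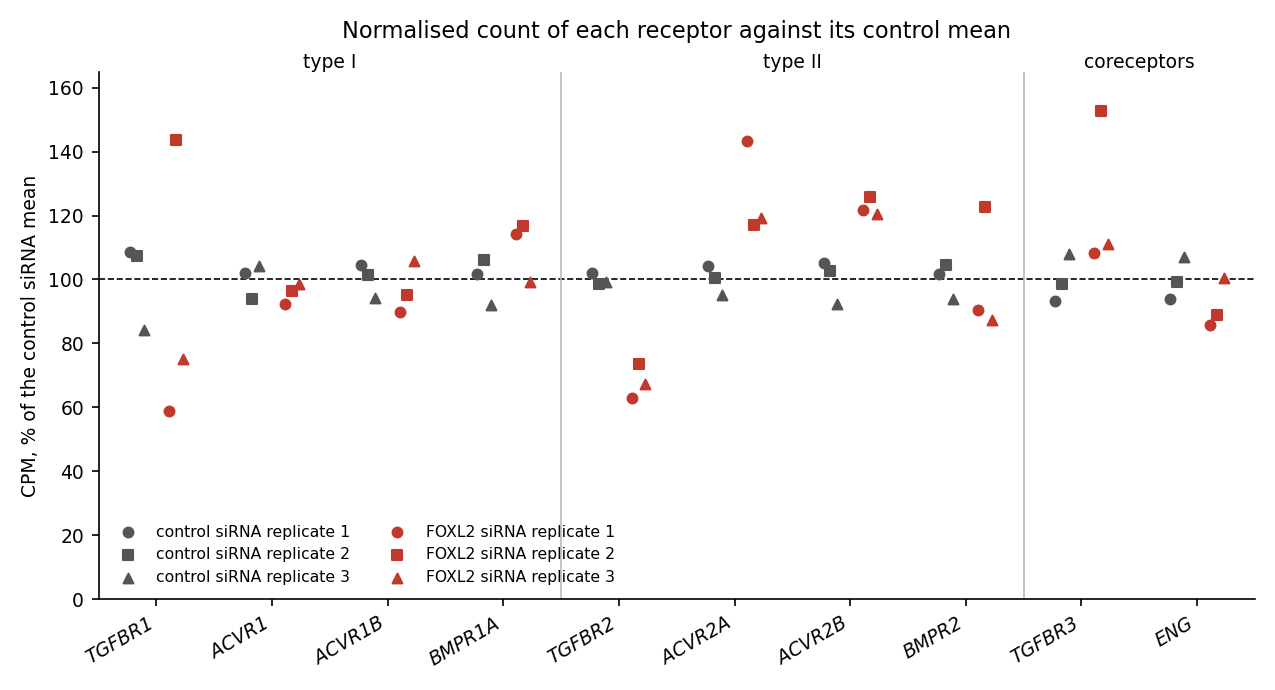
CPM of each receptor in each library as a percentage of its own control siRNA mean (dashed line at 100%), with control libraries in grey and FOXL2 siRNA libraries in red. TGFBR2 lies at 63.0% to 73.5% in the FOXL2 siRNA libraries, whereas TGFBR1 runs from 58.9% to 144% in the same libraries.

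The type I receptors are at chr9:99104038-99154192 (TGFBR1, plus strand), chr2:157736444-157875862 (ACVR1, minus strand), chr12:51951667-51997078 (ACVR1B, plus strand) and chr10:86756601-86932838 (BMPR1A, plus strand) in GENCODE v29 (GRCh38). TGFBR1 is the kinase that TGFBR2 activates. It was at 65.1, 64.3 and 50.4 CPM in the control libraries and at 35.3, 86.0 and 45.0 CPM in the FOXL2 siRNA libraries. FOXL2 siRNA replicates 1 and 3 were below every control library and replicate 2 was above every one, so that the groups overlapped. The log2 fold change of TGFBR1 was -0.12 ± 0.28 (SE), the widest error of the 10 receptors. Without FOXL2 siRNA replicate 2 it was -0.58 and edgeR called it, without replicate 1 it was 0.12, and without replicate 3 it was 0.01. The fit without replicate 2 called 579 genes over the whole table, against 40 with all libraries. DESeq2 with effective lengths as offsets gave -0.31 ± 0.34 and no call.

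TGFBR1 also differed between the FOXL2 siRNA pools in TPM, with 15.2, 33.1 and 19.7 TPM in pools 1, 2 and 3, against 31.8, 27.5 and 24.1 TPM in the control libraries. Its effective length was 4091 bases in FOXL2 siRNA replicate 2 and at most 3486 bases elsewhere. Since each pool was sequenced once, the spread of TGFBR1 over the pools cannot be told apart from a spread over cultures.

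ACVR1, a type I receptor for BMPs and activins, varied little. It was at 39.2, 36.1 and 40.0 CPM in the control libraries and at 35.5, 37.0 and 37.8 CPM in the FOXL2 siRNA libraries, a log2 fold change of -0.06 ± 0.07 (SE). ACVR1B, the type I partner of the activin type II receptors, was at 18.0, 17.5 and 16.2 CPM in the control libraries and at 15.5, 16.4 and 18.2 CPM with FOXL2 siRNA. The groups overlapped for both genes. The log2 fold change of ACVR1B was -0.04 ± 0.09, and it had the opposite sign in 5 of 16 alternative fits. BMPR1A, a type I receptor for BMPs, was at 27.1, 28.3 and 24.6 CPM in the control libraries and at 30.4, 31.2 and 26.4 CPM with FOXL2 siRNA. Its log2 fold change was 0.14 ± 0.09 on counts and 0.02 ± 0.13 when effective lengths were taken as offsets in DESeq2, and its groups overlapped.

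Among the other type II receptors, the activin receptors ACVR2A (chr2:147844517-147930826, plus strand) and ACVR2B (chr3:38453851-38493142, plus strand) were both somewhat higher in every FOXL2 siRNA library, at low counts. ACVR2A was at 4.82, 4.65 and 4.40 CPM in the control libraries and at 6.62, 5.41 and 5.52 CPM with FOXL2 siRNA, from 114 to 181 expected counts per library. The log2 fold change was 0.34 ± 0.13 (SE), and edgeR did not call it. In TPM the groups of ACVR2A overlapped, with 3.72, 2.53 and 3.31 TPM against 4.68, 3.40 and 3.92 TPM.

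ACVR2B was at 4.94, 4.82 and 4.33 CPM in the control libraries and at 5.71, 5.91 and 5.65 CPM with FOXL2 siRNA, a log2 fold change of 0.29 ± 0.12 (SE) that edgeR did not call. Its TPM values were 0.81, 0.89 and 0.65 TPM against 1.38, 0.93 and 1.20 TPM. They were apart only narrowly, since FOXL2 siRNA replicate 2 exceeded control siRNA replicate 2 by little. The effective length of ACVR2B varied most of the 10, from 6076 bases in FOXL2 siRNA replicate 1 to 10013 bases in replicate 2, and DESeq2 with these lengths as offsets gave a log2 fold change of 0.57 ± 0.24 (SE).

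BMPR2 (chr2:202376936-202567751, plus strand), the type II receptor for BMPs, had nearly the same mean in both conditions, 101 ± 5.58 CPM in the control libraries and 101 ± 19.8 CPM with FOXL2 siRNA (SD, n = 3). The single values were 103, 105 and 94.6 CPM against 91.2, 124 and 88.1 CPM, so that FOXL2 siRNA replicate 2 lay above the control libraries and the other 2 below them. The effective length was also longest in replicate 2, 7944 bases against at most 6058 bases elsewhere, and in TPM that library was not above the controls, at 24.6 TPM beside 25.2, 26.8 and 23.0 TPM. Without replicate 2 the log2 fold change of BMPR2 was -0.17, against 0.00 ± 0.12 with all libraries.

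Of the coreceptors, ENG (chr9:127815012-127854756, minus strand) was the most abundant receptor gene of the set and TGFBR3 (chr1:91680343-91906335, minus strand) was among the lower ones. ENG was at 315, 332 and 358 CPM in the control libraries and at 287, 298 and 337 CPM with FOXL2 siRNA, and its log2 fold change was -0.13 ± 0.08 (SE). The groups overlapped through FOXL2 siRNA replicate 3, and the effective length of ENG varied by 0.55% over the libraries. TGFBR3, which presents TGF-beta to TGFBR2 and binds inhibin, was at 12.9, 13.6 and 14.9 CPM in the control libraries and at 15.0, 21.1 and 15.3 CPM with FOXL2 siRNA. The log2 fold change was 0.30 ± 0.14 (SE) and the groups were apart only narrowly, since FOXL2 siRNA replicate 1 exceeded control siRNA replicate 3 by little. Without FOXL2 siRNA replicate 2 the value was 0.13, and in TPM the groups of TGFBR3 overlapped.

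**Figure D3:**
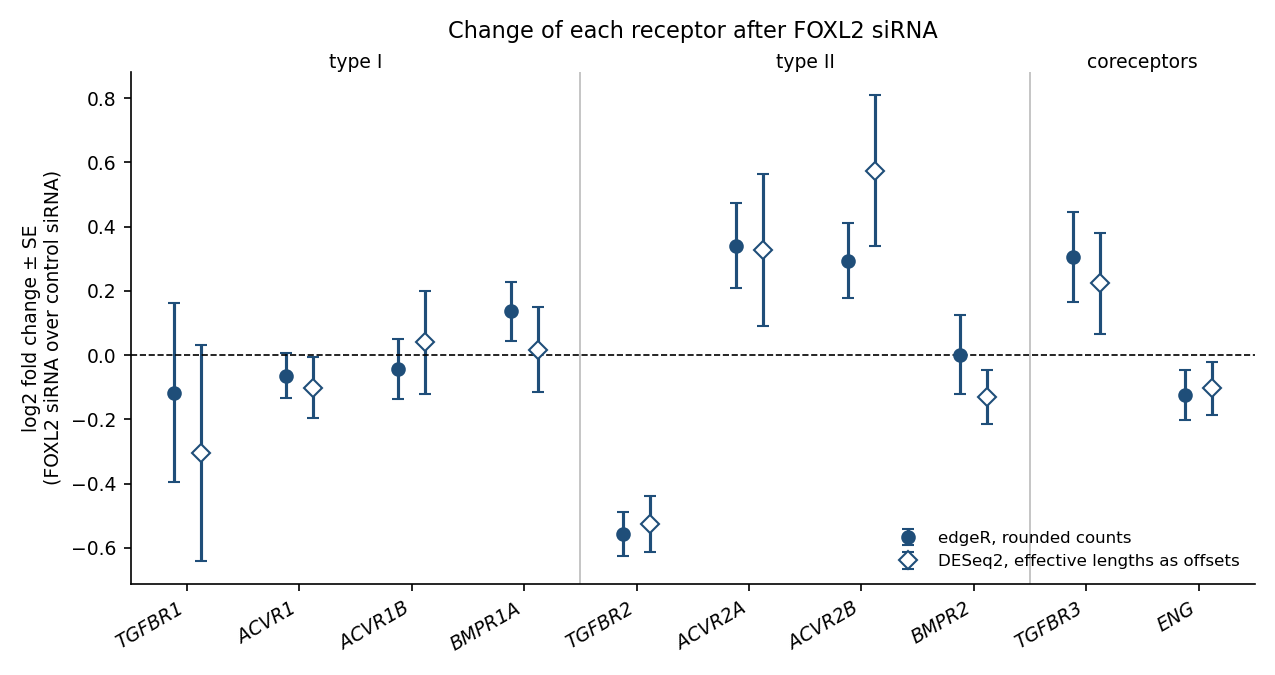
Log2 fold change with its SE for the 10 receptors, from edgeR on rounded counts (filled circles) and from DESeq2 with effective lengths as offsets (open diamonds). TGFBR2 is at -0.56 and -0.53, ACVR2B moves from 0.29 to 0.57 with the offsets, and TGFBR1 has the widest error of the 10 in both fits.

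Over the set, the median log2 fold change was -0.02, beside 0.01 over all tested genes, and 5 receptors were below 0 and 5 above. The median size of the change, regardless of sign, was 0.13 for the receptors and 0.12 for all tested genes. The conditions did not overlap in CPM for 4 of the 10 receptors, namely TGFBR2 in the lower direction and ACVR2A, ACVR2B and TGFBR3 in the higher one, beside 20.5% of all tested genes (10.6% lower and 9.97% higher). In TPM this held for TGFBR2 and, narrowly, for ACVR2B, beside 18.4% of all tested genes. These counts come from the contrast on which the set was assembled and are given as a description.

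TGFBR2 made up most of the type II receptor transcripts, and this share was smaller with FOXL2 siRNA. It was 77.3%, 76.3% and 77.8% of the summed TPM of the 4 type II receptors in the control libraries and 68.6%, 72.9% and 70.7% with FOXL2 siRNA. The other 3 type II receptors together were at 28.96 ± 1.75 TPM in the control libraries and 28.1 ± 0.88 TPM with FOXL2 siRNA (SD, n = 3). The ratio of TGFBR2 to TGFBR1 TPM was 3.18, 3.54 and 3.94 in the control libraries. It was 4.05, 2.34 and 3.33 with FOXL2 siRNA, so that the ratio had no common direction over the 3 pools. The summed TPM of the type II receptors over that of the 4 type I receptors was 1.69, 1.84 and 1.90 in the control libraries. With FOXL2 siRNA it was 1.60, 1.43 and 1.501, and these groups did not overlap. TGFBR2 made up most of the type II sum and was selected on its lower counts in these libraries. The smaller share and ratio carry that selection and are given as a description.

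The estimated lengths bear on these ratios, because RSEM sets them anew in each library from the isoforms it finds. For 6 of the 10 receptors the effective length was longest in FOXL2 siRNA replicate 2, and over 12971 tested genes with at least 1 TPM in each library this was so for 32.2%. For FOXL2 siRNA replicate 3 that share was 26.9%, and for the remaining libraries it lay between 9.20% and 11.6%. Among the receptors only TGFBR2 and ENG kept their effective length within 3% over the libraries. For the 8 others, CPM and TPM can part with the length, as they did for BMPR2 and TGFBR3. The units also parted in FOXL2 siRNA replicate 2 where the length was stable. There TGFBR2 was at 73.5% of its control mean in CPM and 79.4% in TPM, and ENG at 88.9% and 94.7%. FOXL2 itself was at 32.6% and 34.8% in that library, so this parting was not particular to the receptors. Which isoforms lay behind the estimates was not analysed here.

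**Figure D4:**
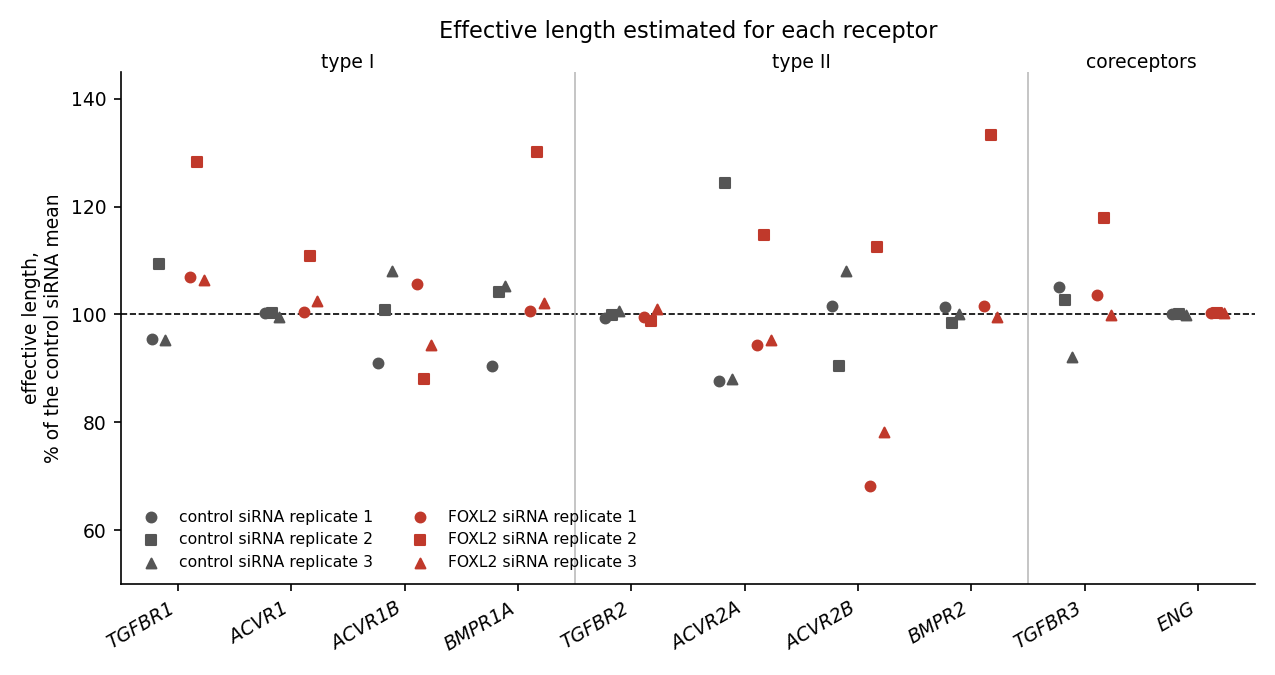
Effective length of each receptor in each library as a percentage of its control siRNA mean. FOXL2 siRNA replicate 2 (red squares) is the longest for TGFBR1, ACVR1, BMPR1A, ACVR2B, BMPR2 and TGFBR3, and the points of TGFBR2 and ENG lie close to 100%.

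The 5 genes below had the log2 CPM pattern most like that of TGFBR2 over the 6 libraries, among 9469 tested genes with a mean of at least 10 CPM. They were MCFD2 (Pearson's r = 0.995), MSANTD3 (0.994), PTMA (0.990), RNF182 (0.990) and NT5E (0.990), as a description over libraries that share their siRNA. MCFD2, a partner of the cargo receptor LMAN1, averaged 586 CPM in the control libraries and 327 CPM with FOXL2 siRNA. NT5E, which encodes the ectonucleotidase CD73, averaged 1005 and 727 CPM. Of the 7 receptors compared with TGFBR2 in this way, ACVR1 (0.58) and ENG (0.57) were the nearest, and TGFBR1 was at 0.45.

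The other components of the pathway were taken from 6 lists, which hold 117 genes. Of these, 89 were tested, and edgeR called none at an adjusted p below 0.05, in either direction. At an unadjusted p below 0.05 there were 19 genes (6 lower and 13 higher), beside 13.5% of all tested genes, and DESeq2 called 6, beside 2.13% of all tested genes.

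Of 11 other family receptors and coreceptors, 5 were tested. The receptors ACVRL1, ACVR1C and AMHR2 did not pass the filter, with at most 1, 10 and 1 expected counts in any library, and AMHR2 is the receptor of AMH. BMPR1B, a type I receptor, was at 3.01 ± 0.09 CPM in the control libraries and 2.45 ± 0.27 CPM with FOXL2 siRNA (SD, n = 3), a log2 fold change of -0.30 ± 0.15 (SE). RGMB, a coreceptor for BMPs, averaged 140 and 170 CPM, with a log2 fold change of 0.28 ± 0.11. With FOXL2 siRNA it was at 204, 151 and 154 CPM, and without replicate 1 of these the log2 fold change was 0.12. NRP1, which also binds TGF-beta, was higher in every FOXL2 siRNA library in CPM, with means of 355 and 412, but DESeq2 with effective lengths as offsets put its log2 fold change at -0.00. CD109, a coreceptor that inhibits TGF-beta signalling, averaged 168 and 167 CPM. None of these genes was called by edgeR or DESeq2.

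Of 32 ligand genes, 11 were tested, with a median log2 fold change of 0.04. TGFB1, the ligand of TGFBR2 with the highest level, was at 221 ± 6.09 CPM in the control libraries and 208 ± 24.5 CPM with FOXL2 siRNA. BMP4 averaged 81.3 and 78.0 CPM, and INHBA, the subunit of activin A, averaged 77.7 and 70.0 CPM. The groups overlapped for all 3. GDF11, an activin-like ligand, had the lowest log2 fold change of the list, -0.41 ± 0.10 (SE), with 34.0, 32.0 and 38.3 CPM in the control libraries and 23.0, 27.2 and 28.5 CPM with FOXL2 siRNA. DESeq2 called GDF11 without offsets but not with effective lengths as offsets (-0.33), and edgeR did not. The highest was BMP6, at 0.46 ± 0.45 and a mean under 1 CPM in both conditions, and without FOXL2 siRNA replicate 2 it was at -0.03.

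All 21 genes for ligand traps and latency proteins were tested, with a median log2 fold change of 0.03. THBS1, which encodes thrombospondin 1, a protein known to release TGF-beta from its latent complex, was at 2157 ± 121 CPM in the control libraries and 2586 ± 46.8 CPM with FOXL2 siRNA (SD, n = 3). DESeq2 called it, and edgeR did so only when FOXL2 siRNA replicate 2 was left out, the fit with 579 calls over the whole table. FBN1 (fibrillin 1) and FSTL3, an activin antagonist, averaged 2878 and 2939 CPM, and 141 and 137 CPM. ITGB8, an integrin subunit that frees TGF-beta, had the highest log2 fold change, 0.46 ± 0.15, but it was 0.27 without FOXL2 siRNA replicate 2 and 0.23 in DESeq2 with effective lengths, below THBS1 at 0.31. CHRD (chordin) had the lowest, -0.38 ± 0.38 at under 1 CPM, and these settings put it at -0.60 and -0.96. Neither ITGB8 nor CHRD was called by edgeR or DESeq2.

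All 30 SMADs and intracellular regulators were tested, with a median of 0.04. SKI, a corepressor that binds SMADs, had the largest value of the whole pathway, a log2 fold change of -1.29 ± 0.21 (SE). It was at 98.3, 96.5 and 96.1 CPM in the control libraries and at 56.1, 34.5 and 28.0 CPM with FOXL2 siRNA, and the adjusted p of edgeR's quasi-likelihood test (Benjamini-Hochberg) was 0.051. It was called by DESeq2, with and without the offsets, and by edgeR in 5 of its alternatives. Among these 5 was the fit without FOXL2 siRNA replicate 2. Its paralog SKIL averaged 38.1 and 49.9 CPM (log2 fold change 0.39 ± 0.12, the highest of the list). In DESeq2 with effective lengths SKIL was at 0.22, below SMURF2 at 0.24. FKBP1A, whose product binds type I receptors, averaged 340 and 366 CPM, STRAP 138 and 146 CPM, and the ubiquitin ligase SMURF2 204 and 243 CPM. NEDD4L, another ubiquitin ligase, averaged 68.3 and 86.3 CPM, a log2 fold change of 0.34 ± 0.09 that DESeq2 called. With effective lengths as offsets in DESeq2 it was 0.14 and not called. EdgeR called NEDD4L only without FOXL2 siRNA replicate 2, the fit with 579 calls over the whole table.

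Of 22 genes known to respond to TGF-beta, 21 were tested, with a median of 0.06, and CDKN2B was not. The conditions did not overlap for 10 of the 21, 3 lower and 7 higher, beside the 20.5% of all tested genes. ACTA2, smooth muscle actin, averaged 169 and 228 CPM, a log2 fold change of 0.44 ± 0.14 that was the highest of the list. COL3A1 averaged 1443 and 1155 CPM. DESeq2 called 3 genes of this list, ACTA2, COL3A1 and THBS1 (which is also among the latency proteins above), beside 2.13% of all tested genes. With effective lengths as offsets it called 5 of the 21, beside 2.29%. With all libraries, edgeR on counts called none of the list. COL1A1 and FN1, the most abundant of the list, averaged 14409 and 14214 CPM, and 14651 and 13508 CPM. POSTN had the lowest value, -0.57 ± 0.41 at under 1 CPM, and was at -0.37 without FOXL2 siRNA replicate 2.

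All 10 genes known to respond to BMPs were tested, with a median of -0.05. The conditions did not overlap for 1 of the 10, beside 20.5% of all tested genes. That gene was SMAD7, which averaged 42.9 and 48.0 CPM. ID1, ID2 and ID3, immediate targets of BMP signalling, averaged 45.0 and 45.7 CPM, 17.5 and 16.1 CPM, and 141 and 132 CPM, and their groups overlapped. ID4 had the lowest log2 fold change, -0.45 ± 0.21, with 12.01 ± 0.46 CPM in the control libraries. In the FOXL2 siRNA libraries it was at 6.88, 12.6 and 7.04 CPM, with replicate 2 again apart from the other 2, as for TGFBR1. Without that library its log2 fold change was -0.79 ± 0.10 and edgeR called it, in the fit that called 579 genes over the whole table. With all 6 libraries, neither edgeR nor DESeq2 called a gene of this list.

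**Figure D5:**
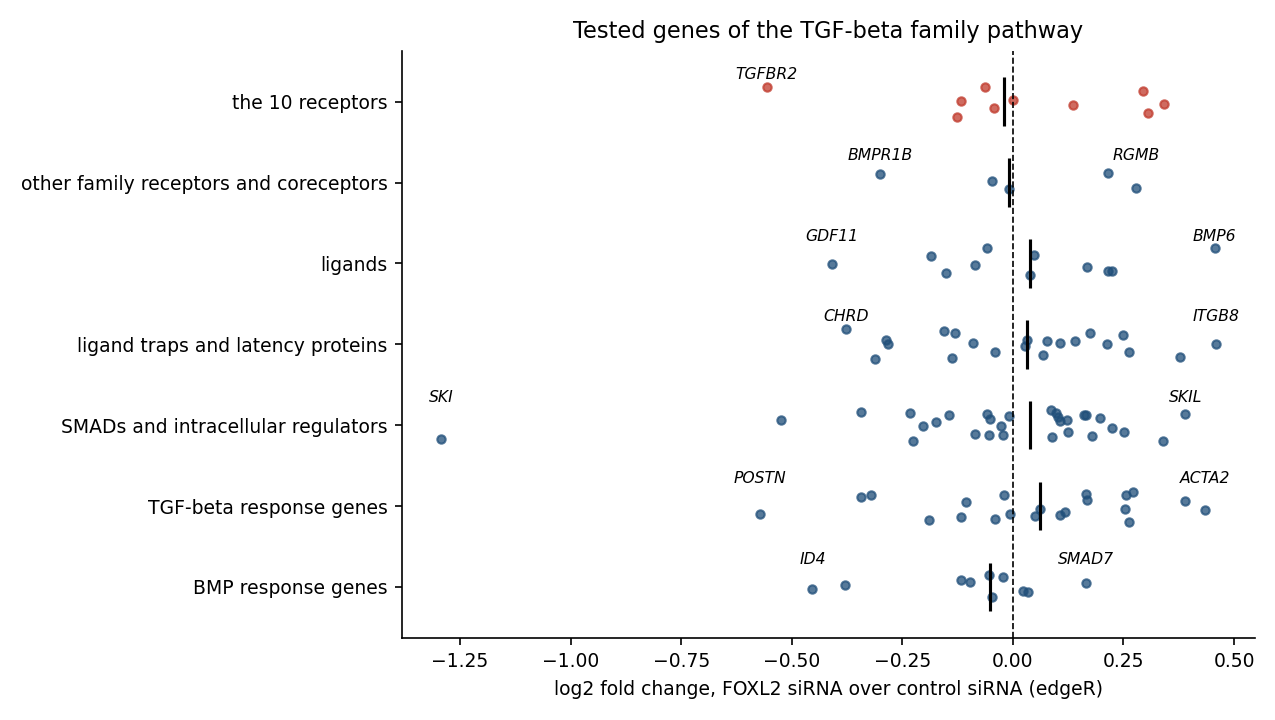
Log2 fold change (edgeR) of the 10 receptors (red) and of the tested genes of 6 pathway lists (blue), with a black line at each median and the lowest and highest gene of each list named. The medians of the 7 rows lie between -0.05 and 0.06, TGFBR2 is at -0.56 and SKI at -1.29.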

How the data were processed

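The 3 FOXL2 siRNA and 3 control siRNA RNA-seq libraries of KGN cells were grouped by the labels. Per the labels' processing notes, the authors used STAR 2.7.6a, Picard 2.8.1 and RSEM 1.3.1. The notes name a mouse build, GRCm38, while the identifiers are human, so the build was taken as unknown. The deposited expected counts are estimated counts without normalization, and the deposited TPM and effective lengths were set by RSEM in each library.

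Expected counts were rounded, filtered by filterByExpr, normalized by TMM and compared by the quasi-likelihood test of edgeR 4.0.16 in R 4.3.3 (Benjamini-Hochberg, threshold 0.05), which was checked on simulated data. Alternatives were DESeq2 1.42.0, its size factors, effective lengths as offsets, other filters, limma 3.58.1 on log2(TPM + 1) or log2(TPM + 0.1) at a mean of at least 1 TPM, a replicate block, each library left out and, added after seeing the data, edgeR's older quasi-dispersion.

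The receptors and lists were chosen with earlier results of these data known. Named are the receptors, FOXL2, in each pathway list the called genes, the lowest and highest log2 fold change and the 3 highest mean TPM, and the 5 genes most like TGFBR2. Genes called by DESeq2 but not by edgeR, receptors under the filter, and markers were named after their values were seen. The values of 1 gene that this rule names are not reported here. Sequences are those of RefSeq and GENCODE.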

Additional observations from a re-analysis of the deposited data

How the results depend on the processing

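The number of genes called over the whole table was 40, and it was 39 with DESeq2's size factors, 44 with effective lengths as offsets in edgeR and 41 with the older quasi-dispersion, against 70 without a filter, 64 for genes averaging 50 counts or more, 333 with DESeq2, 358 with DESeq2 and effective lengths, 11 with the replicate block, 2 with limma on log2(TPM + 1) and 3 with limma on log2(TPM + 0.1). Without 1 library it lay between 2 and 579: it was 2, 3 and 2 without control siRNA replicates 1, 2 and 3, and 105, 579 and 9 without FOXL2 siRNA replicates 1, 2 and 3. The number of receptors called was 1, and it was 0 in both limma fits and with the replicate block. Without 1 library it lay between 0 and 2, and TGFBR1 was the second one, without FOXL2 siRNA replicate 2. The number of pathway genes called was 0, but 1 without a filter, 1 for genes averaging 50 counts or more, 1 with effective lengths in edgeR, 6 with DESeq2 and 6 with DESeq2 and effective lengths. Without 1 library it lay between 0 and 5. SKI was in each of these sets above 0. The cause of these differences was not tested.

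The log2 fold change of TGFBR2 lay between -0.62 and -0.51 in all 16 alternatives and was called in 9 of them. Its value with the replicate block was -0.56. No pairing of the libraries by replicate number was seen. Deviations from the group means correlated at -0.05, 0.05 and 0.07 between same-numbered libraries, and not every library correlated best with its own number. Since the deviations were centred within 3 libraries per condition, these correlations cannot exclude a pairing. Beyond the receptor values given above as moving with effective lengths or 1 library, FOXL2 stayed lower in every alternative. With 3 libraries per condition and 23843192 to 28791954 counts each, small differences of low receptors were not resolved.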
